A study of Mus musculus with 16 samples.

Results

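The nutrient transporters described here are 10 genes that encode carriers of glucose, lactate and amino acids at the surface of the cell, taken by their symbols from the 22114 genes listed in each of 2 tables of RNA-seq counts: Slc2a1, Slc2a3, Slc16a1, Slc16a3, Slc7a5, Slc3a2, Slc7a11, Slc1a5, Slc38a2 and Slc7a1. All 10 genes were found in both tables and all 10 passed the filter on low counts. The cells were DN3 thymocytes, T-cell precursors that have not yet made a complete T-cell receptor, sorted from mice on the C57BL/6 background. In the first experiment, H2B-GFP;Lmo2Tg mice were given doxycycline to label chromatin with GFP and were then chased without it for 2 weeks, and GFPhi cells, which retained the label, were compared with GFPlo cells, which had diluted it by dividing (3 libraries each). Every cell of that experiment carried the Lmo2 transgene, a T-cell oncogene driven in the lymphoid lineage by CD2 regulatory sequences, so GFPhi and GFPlo cells both held it. In the second experiment, unfractionated DN3 cells of 6-week-old animals were compared between wild-type (3 libraries), p21-/- (2 libraries), Lmo2Tg (2 libraries) and Lmo2Tg;p21-/- mice (2 libraries), where p21 is the product of Cdkn1a, an inhibitor of the cell cycle. Each library was made from a pool of mice, so the spread between libraries is that between pools, and in bulk RNA a smaller share of cells that express a gene and less RNA per cell cannot be told apart.

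Cells take up glucose through facilitative carriers of the SLC2 family and exchange lactate and pyruvate together with protons through the monocarboxylate carriers of the SLC16 family. Large neutral amino acids such as leucine enter through a pair of proteins, the light chain LAT1 (Slc7a5) and the heavy chain CD98 (Slc3a2), and the same heavy chain also carries xCT (Slc7a11), which imports cystine in exchange for glutamate. In thymocytes, glucose carriers and CD98 are known to be raised at the transition through the pre-T-cell receptor checkpoint, when cells grow and divide, and several amino acid carriers are known targets of the transcription factors ATF4 and MYC. Leucine and arginine brought in by these carriers are sensed at the lysosome and activate the growth kinase complex mTORC1.

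Total counts lay between 26861394 and 31106213 per library in the GFP experiment and between 13864936 and 16837667 in the genotype experiment. A count of 3 was set as a mark of low counts and was not used as a filter. It was worth 0.0964 to 0.112 counts scaled to a common library size (CPM) in the GFP experiment and 0.178 to 0.216 CPM in the genotype experiment, for counting error only. GFPhi replicate 3 stood apart from its group: the chi-square statistic per gene between it and GFPhi replicates 1 and 2 was 110 and 128, against 7.36 between replicates 1 and 2, and results of that experiment are therefore given with and without it. Wild-type replicate 3 also lay further from its group, with 17.4 and 16.5 against 2.55 between wild-type replicates 1 and 2. Cdkn1a was counted at 36.5, 37.5 and 49.0 CPM in wild-type, 14.3 and 17.7 CPM in p21-/-, 32.8 and 26.3 CPM in Lmo2Tg and 4.35 and 3.50 CPM in Lmo2Tg;p21-/- libraries, so it was lowest in both groups labelled p21-/- although reads remained. Lmo2 was at 0.0636 to 0.306 CPM in the 5 genotype libraries without the transgene and at 41.4 to 106.9 CPM in the 4 genotype libraries with it. In the GFP experiment it was at 53.8, 29.5 and 284.9 CPM in GFPhi and at 35.8, 37.5 and 42.3 CPM in GFPlo replicates 1, 2 and 3, so that GFPhi replicate 3 stood far above all others. Cdkn1a was at 35.8, 29.9 and 6.55 CPM in GFPhi and at 12.02, 11.1 and 8.08 CPM in GFPlo replicates 1, 2 and 3. GFPhi replicates 1 and 2 were above every GFPlo library and GFPhi replicate 3, against its group, was below every one. The summed level of 10 markers of DN3 thymocytes was 8745 to 10810 CPM in the GFP experiment and 7294 to 11100 CPM among the genotypes, with no marker at 0 in all libraries of a group.

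The levels of the 10 genes covered a wide range. To compare genes with each other, CPM were divided by the length of each gene's exons in kilobases (CPM per kb). In wild-type cells the lactate and pyruvate carrier Slc16a1 was the highest at 65.7 ± 2.45 CPM per kb (SD, n = 3), followed by Slc7a5 at 51.2 ± 2.71, the neutral amino acid carrier Slc38a2 at 47.2 ± 3.50 and the glutamine carrier Slc1a5 at 44.0 ± 2.34 CPM per kb. The ranges of Slc7a5, Slc38a2 and Slc1a5 overlapped in that order, so these neighbours could not be ranked. Slc3a2 was at 30.2 ± 0.772 CPM per kb, below its partner Slc7a5, and the arginine and lysine carrier Slc7a1 was at 15.6 ± 0.774 CPM per kb. Both glucose carriers were much lower, with Slc2a1 at 5.70 ± 0.619 and Slc2a3 at 4.29 ± 0.271 CPM per kb. Slc16a3 and Slc7a11 were near the lower end of what was measured, at 0.335 ± 0.0939 and 0.180 ± 0.0461 CPM per kb, and their ranges overlapped.

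The order was not the same in every group. In Lmo2Tg libraries Slc38a2 was the highest at 73.3 ± 5.67 CPM per kb (SD, n = 2), and Slc16a1, Slc7a5 and Slc3a2 followed at 57.0, 57.0 and 55.8 CPM per kb with overlapping ranges. In Lmo2Tg;p21-/- libraries Slc7a5 and Slc3a2 lay next to each other at 31.0 ± 2.23 and 30.4 ± 0.308 CPM per kb, below Slc1a5 at 45.0 ± 0.325. In GFPlo cells Slc38a2 was also the highest, at 77.8 ± 7.04 CPM per kb (SD, n = 3), with a range that overlapped that of Slc16a1 at 66.8 ± 7.96. In GFPhi cells the ranges of neighbours overlapped from Slc1a5 at 56.2 ± 7.20 down to Slc3a2 at 33.9 ± 3.89 CPM per kb. The tables of the experiments were normalized apart, so levels are compared only within an experiment.

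On GRCm38, the build named as mm10 in the submitters' processing notes, the genes lie on 9 chromosomes, with Slc16a1 (104638668 to 104658462, forward strand) and Slc7a11 (49892526 to 50443614, reverse strand) both on chromosome 3. Slc38a2 lies on chromosome 15 (96687392 to 96699730, reverse strand), Slc3a2 on chromosome 19 (8706882 to 8723369, reverse strand), Slc7a5 on chromosome 8 (121881150 to 121907694, reverse strand) and Slc16a3 on chromosome 11 (120948480 to 120960868, forward strand). Slc2a1 lies on chromosome 4 (119108711 to 119137983, forward strand), Slc2a3 on chromosome 6 (122727809 to 122801640, reverse strand), Slc7a1 on chromosome 5 (148327410 to 148399904, reverse strand) and Slc1a5 on chromosome 7 (16781340 to 16798274, forward strand). Slc7a5 overlaps the protein-coding gene Gm20388 on the other strand, and Slc2a1 and Slc7a11 overlap antisense genes. No protocol used here says whether reads were counted by strand. The names of the deposited tables point to reverse-strand counting in the GFP experiment and to counting without strand in the genotype experiment. In the latter, reads from any exon that these 3 genes share with their partners could not be told apart. The overlaps are of whole gene spans, and overlap of exons was not checked. Slc2a3 and Slc7a11 also overlap processed pseudogenes on their own strand, which could share reads with a gene under either setting.

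RefSeq start sites with a window of 250 bases before and 50 bases after the start were found for 7 of the 10 genes and not for Slc2a3, Slc7a5 and Slc1a5. The windows were searched on both strands for the core of the element bound by C/EBP and ATF factors including ATF4 (TGATGNAA), for the E-box bound by MYC (CACGTG), for the core of the hypoxia response element (ACGTG, which the E-box contains) and for the core of the antioxidant response element (TGACNNNGC). Of all 32851 RefSeq windows of the same length, 3.97% held the first, 7.15% the E-box, 19.6% the hypoxia core and 12.4% the antioxidant core. The 250 bases upstream of the start are shown for Slc7a11, which had 2 matches to the first motif (at positions -66 and -47 from the start, on opposite strands), for Slc38a2, with 1 match to the antioxidant core (at position -27), and for Slc7a1, with 1 match to the antioxidant core (at position -11). These genes changed in the comparisons below, as did Slc16a3, Slc2a1 and Slc3a2, whose windows are described after the sequences and are not printed. Capitals mark the matches, and each sequence is from RefSeq on GRCm38.p6, read from 5′ to 3′ on the reverse strand.
Slc7a11 (chr3:50443614-50443863): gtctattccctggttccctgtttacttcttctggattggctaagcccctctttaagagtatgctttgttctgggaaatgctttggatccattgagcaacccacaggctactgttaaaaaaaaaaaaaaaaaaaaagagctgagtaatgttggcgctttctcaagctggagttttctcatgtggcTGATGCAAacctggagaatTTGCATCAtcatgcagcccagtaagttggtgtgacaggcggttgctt
Slc38a2 (chr15:96699729-96699978): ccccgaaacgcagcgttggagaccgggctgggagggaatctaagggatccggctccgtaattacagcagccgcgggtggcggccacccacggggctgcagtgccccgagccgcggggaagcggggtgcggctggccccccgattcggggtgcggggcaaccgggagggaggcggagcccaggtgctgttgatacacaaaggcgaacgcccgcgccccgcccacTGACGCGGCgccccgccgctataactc
Slc7a1 (chr5:148399905-148400154): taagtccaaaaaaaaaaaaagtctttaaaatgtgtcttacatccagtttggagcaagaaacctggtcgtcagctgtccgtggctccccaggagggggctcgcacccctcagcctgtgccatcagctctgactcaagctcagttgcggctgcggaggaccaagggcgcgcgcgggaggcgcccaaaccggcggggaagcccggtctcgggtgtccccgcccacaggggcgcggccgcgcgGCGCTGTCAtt
Among the other genes, the window of Slc16a3 held the hypoxia core at positions -27 and -14 from the start, that of Slc2a1 held it at -36, and that of Slc3a2 held it on the other strand at -164. The window of Slc16a1 held an E-box at -200, with the hypoxia core that it contains, an antioxidant core at -207 and a further hypoxia core at 21, past the start. A second window of Slc7a1 held none of the 4 motifs. A match describes letters and does not show that a factor binds there.

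GFPhi cells were compared with GFPlo cells to ask how cell cycle-restricted pre-leukemic cells differ from cycling cells of mice with the same genotype. A total of 4 of the 10 transporters were lower in GFPhi cells and none was higher: the lactate carrier Slc16a3, the cystine carrier Slc7a11, the neutral amino acid carrier Slc38a2 and the CD98 heavy chain Slc3a2. The glucose carrier Slc2a1 and the amino acid carriers Slc1a5 and Slc7a1 were at like levels in GFPhi and GFPlo libraries. A gene was called where edgeR's quasi-likelihood test gave an adjusted p under 0.05, the adjustment (Benjamini-Hochberg) being made over every gene tested. Over the 11581 genes tested, 9.49% were called lower and 5.37% higher, and the median log2 fold change of the 10 transporters was -0.46 against 0.02 over all genes. The count of 4 includes Slc16a3, which passed the filter on low counts only through its level in GFPlo libraries. With at least 1 CPM required in every library, Slc16a3 and Slc7a11 were not tested and 2 of the 8 remaining transporters were called. The share of all genes called at that setting is not given.

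**Figure D1:**
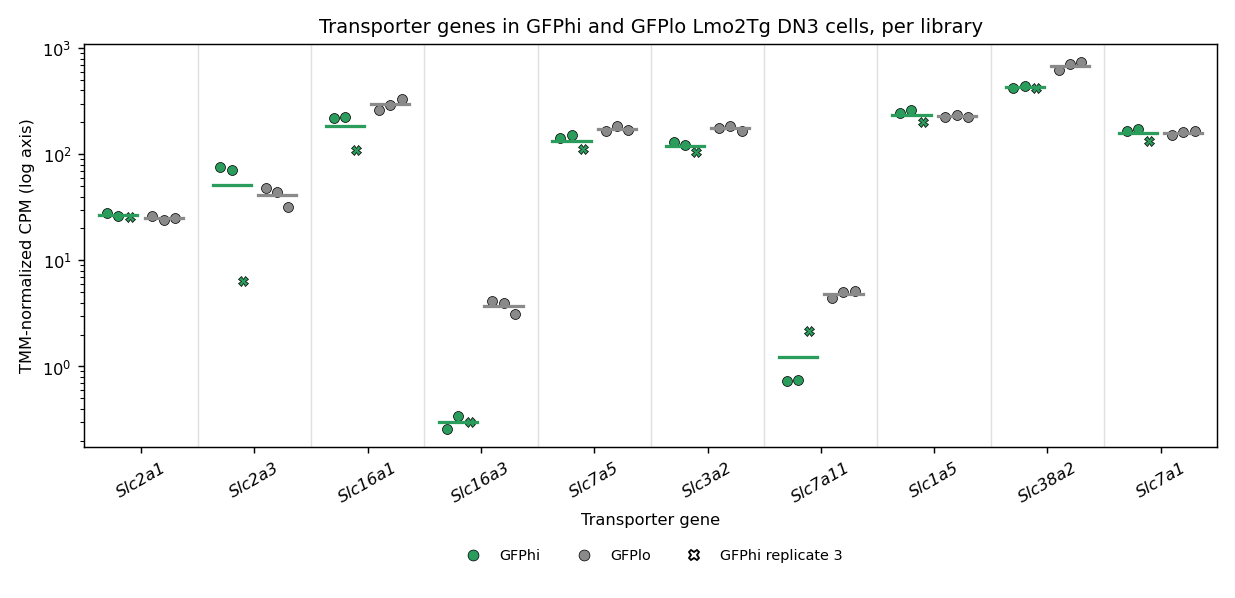
TMM-normalized CPM (log axis) of the 10 transporter genes in each GFPhi (green) and GFPlo (grey) library of Lmo2Tg DN3 cells, with the group mean as a line and GFPhi replicate 3 as a cross. Slc16a3, Slc7a11, Slc38a2 and Slc3a2 are lower in every GFPhi library than in any GFPlo library, as are Slc16a1 and Slc7a5, which were not called. GFPhi replicate 3 is far below the other GFPhi libraries for Slc2a3 and Slc16a1. The share of all genes whose groups do not overlap was not counted, so separation by itself does not set a gene that was not called apart from other genes.

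Slc16a3 encodes MCT4, a monocarboxylate carrier known for lactate export from glycolytic cells. It was at 0.257, 0.341 and 0.298 CPM in GFPhi replicates 1, 2 and 3, from 7, 10 and 8 counts, and at 4.14, 3.95 and 3.09 CPM in GFPlo replicates 1, 2 and 3, from 112, 113 and 96 counts. The groups were far apart. The GFPhi counts were at or below the filter's minimum count of 10, so Slc16a3 was tested only because of its level in GFPlo libraries. It was not among the genes tested when 1 CPM was required in every library. The fit gave a log2 fold change of -3.62 (standard error 0.25, adjusted p = 0.0017 from edgeR), a 12.3-fold lower level, and it was -3.61 without GFPhi replicate 3. Slc16a1, the related MCT1, was at 219, 224 and 111 CPM in GFPhi and at 262, 292 and 332 CPM in GFPlo replicates 1, 2 and 3. Its groups did not overlap either, but GFPhi replicate 3 lay far below every other library, and the log2 fold change of -0.68 (standard error 0.27) was not called by edgeR (adjusted p = 0.14) but was by DESeq2 (adjusted p = 0.046). Without GFPhi replicate 3 it was -0.41 and was called (adjusted p = 0.015 from edgeR). Slc16a1 was called in 2 of the 13 alternatives that changed the fit.

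Of the amino acid carriers, Slc38a2 encodes SNAT2, a sodium-coupled carrier of small neutral amino acids. It was at 423, 438 and 421 CPM in GFPhi and at 618, 708 and 737 CPM in GFPlo replicates 1, 2 and 3, with no overlap. In the fit it differed by -0.69 on the log2 scale (standard error 0.08, adjusted p = 0.0059 from edgeR), and it was called in all 13 alternatives that changed the fit. The other genes of its chromosome moved with it: over the 464 genes tested on chromosome 15 the median was -0.43 on the log2 scale, and 21.6% of them were lower than Slc38a2, against 10.8% of all genes. The part of this chromosome-wide difference in the value of Slc38a2 was not tested.

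Slc3a2 was at 131, 123 and 104.5 CPM in GFPhi and at 176, 186 and 165 CPM in GFPlo replicates 1, 2 and 3. All GFPhi libraries were below all GFPlo libraries, with a log2 fold change of -0.55 (standard error 0.10, adjusted p = 0.020 from edgeR). The call was lost without GFPhi replicate 2 (adjusted p = 0.052) and without GFPlo replicate 1, 2 or 3 (adjusted p = 0.063, 0.10 and 0.061), at log2 fold changes between -0.60 and -0.50. Its light chain Slc7a5, the leucine carrier, was at 141, 151 and 111 CPM in GFPhi and at 165, 185 and 171 CPM in GFPlo replicates 1, 2 and 3. These groups did not overlap, and the log2 fold change of -0.37 (standard error 0.12) was not called over all 6 libraries by edgeR (adjusted p = 0.097) but was by DESeq2 (adjusted p = 0.034), and by edgeR at -0.24 without GFPhi replicate 3 (adjusted p = 0.026). Slc7a5 was called in 2 of the 13 alternatives that changed the fit.

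The other light chain, Slc7a11, was at 0.735, 0.751 and 2.16 CPM in GFPhi and at 4.44, 5.06 and 5.12 CPM in GFPlo replicates 1, 2 and 3. GFPhi replicate 3 lay between its group and the GFPlo libraries, and it differed by -2.004 on the log2 scale over all libraries (standard error 0.46, adjusted p = 0.037 from edgeR) and by -2.70 without that library (adjusted p = 0.00021). The call was lost without GFPhi replicate 1 or 2 (adjusted p = 0.10 and 0.085) and without GFPlo replicate 1, 2 or 3 (adjusted p = 0.087, 0.15 and 0.13), at log2 fold changes between -2.07 and -1.74. It was also lost with the replicate number as a block (-2.17, adjusted p = 0.073).

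Slc2a3 encodes GLUT3, a glucose carrier with high affinity. It was at 76.7, 70.6 and 6.41 CPM in GFPhi and at 48.4, 44.0 and 31.7 CPM in GFPlo replicates 1, 2 and 3. GFPhi replicates 1 and 2 were above every GFPlo library and GFPhi replicate 3 was below every one, so the fit over all libraries gave a log2 fold change of 0.31 with a standard error of 0.79 (adjusted p = 0.81 from edgeR). The sign over all libraries depended on the fit: it was -0.29 by limma-voom and -0.21 with the replicate number as a block, neither called. Without GFPhi replicate 3, Slc2a3 was higher in GFPhi cells by 0.84 on the log2 scale (standard error 0.16, adjusted p = 0.0075 from edgeR). Slc2a1, which encodes GLUT1, the most widely expressed glucose carrier, was at 27.8, 26.4 and 25.8 CPM in GFPhi and at 26.3, 24.3 and 24.9 CPM in GFPlo replicates 1, 2 and 3. The groups overlapped, with a log2 fold change of 0.08 (standard error 0.08).

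Slc1a5 encodes ASCT2, a carrier of glutamine and other neutral amino acids. It was at 243, 259 and 201 CPM in GFPhi and at 226, 236.5 and 225 CPM in GFPlo replicates 1, 2 and 3, with a log2 fold change of 0.03 (standard error 0.10). Slc7a1 encodes CAT1, a carrier of arginine and lysine. It was at 167, 175 and 133 CPM in GFPhi and at 153, 161.5 and 167 CPM in GFPlo replicates 1, 2 and 3, with a log2 fold change of -0.02 (standard error 0.11). For both genes, GFPhi replicate 3 was the lowest library and GFPhi replicates 1 and 2 were the highest. Without GFPhi replicate 3, over the 11745 genes then tested, 1 transporter was called higher (Slc2a3) and 6 lower (Slc16a3, Slc7a11, Slc38a2, Slc3a2, Slc16a1 and Slc7a5), where 19.5% of all genes were called higher and 21.7% lower.

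Other genes of nutrient handling moved in both directions between GFPhi and GFPlo cells. Of 22 other amino acid transporters tested, 6 were lower and 1 was higher, with a median log2 fold change of -0.14. The lowest adjusted p was that of Slc7a8, which encodes LAT2, another light chain of the Slc3a2 heavy chain: it was at 30.5 to 48.3 CPM in GFPhi and at 212 to 262 CPM in GFPlo libraries, a log2 fold change of -2.66 (standard error 0.19, adjusted p = 0.0017 from edgeR). Slc43a3, a carrier known for purine nucleobases, was lower by a log2 fold change of -1.14 and Slc7a4 was higher, at 0.887 to 1.71 CPM in GFPhi and 0.105 to 0.185 CPM in GFPlo libraries. In every GFPlo library Slc7a4 was below the filter's minimum count of 10, so it was tested only because of its level in GFPhi libraries. Without GFPhi replicate 3 there were 9 lower and 4 higher in this list. Of 9 other glucose and monocarboxylate carriers tested, 1 was higher, Emb (log2 fold change 0.38), which encodes embigin, a partner that brings monocarboxylate carriers to the membrane, and none was lower (median 0.18, and 4 higher and 1 lower without GFPhi replicate 3).

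Of 24 genes tested from a list of the amino acid response, 2 were lower and 1 was higher in GFPhi cells (median 0.15). The list held Atf4, genes that respond to it and kinases of the initiation factor eIF2, so not all of its genes are driven by ATF4. Eif4ebp1, a repressor of translation that mTORC1 inactivates, was at 3.89 to 5.10 CPM in GFPhi and at 12.7 to 14.7 CPM in GFPlo libraries (log2 fold change -1.58, adjusted p = 0.0037 from edgeR), Eif2ak2, a kinase of the initiation factor eIF2, changed by -0.62 and Psph, an enzyme of serine synthesis, by 0.38. Of 34 genes of amino acid sensing by mTORC1, 5 were lower and 1 was higher (median 0.05). The higher gene was Sesn3, a member of the sestrins that restrain mTORC1 (0.89), and Tsc1 and Tsc2, the subunits of the complex that also restrains it, were lower (-0.51 and -0.24). Of 21 enzymes that use the carried nutrients, Ldhb, a subunit of lactate dehydrogenase, was lower (-1.05), Bcat2, which starts leucine breakdown, was lower (-0.47) and Gsr, glutathione reductase, was higher (0.42), with 2 lower and 2 higher in all (median 0.03). Of 20 regulators of these carriers, Egln1, the oxygen-sensing hydroxylase, and Mlx, a partner of glucose-sensing factors, were higher (0.33 and 0.32) and Bach1, a repressor of antioxidant genes, was lower (-0.25), with a median of 0.11. Without GFPhi replicate 3 the counts higher and lower were 9 and 6 for the amino acid response, 6 and 6 for mTORC1 sensing, 7 and 5 for the enzymes and 8 and 1 for the regulators.

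Markers of division and of other cells stood beside these differences as follows. None of 10 genes of cell proliferation was called between GFPhi and GFPlo cells (median log2 fold change -0.31), and their summed level was 1667 to 2955 CPM in GFPhi libraries, lowest in replicate 3, and 2318 to 3616 CPM in GFPlo libraries. Of 8 B-lineage markers tested, 4 were higher in GFPhi cells, and the summed level of all 10 B-lineage markers was 29.1 to 54.4 CPM in GFPhi and 25.4 to 28.8 CPM in GFPlo libraries. The 4 called markers were below the filter's minimum count of 10 in every GFPlo library. They were tested only because of their level in GFPhi libraries. Of 7 markers of later thymocytes 1 was higher, with a summed level of 272 to 529 CPM in GFPhi, lowest in replicate 3, and 346.5 to 426 CPM in GFPlo libraries. Of 4 myeloid and dendritic markers tested 1 was higher and 1 was lower, at summed levels of 46.8 to 50.6 and 61.2 to 64.8 CPM. The higher one was also tested only because of its level in GFPhi libraries. Of 4 markers of epithelium and stroma 1 was higher (387 to 1015 and 618 to 674 CPM, with Col3a1 at 0 in both groups), of 3 markers of NK and gamma-delta cells 1 was higher (515 to 571 and 441 to 560 CPM), and none of 6 erythroid and platelet markers was called (3.13 to 8.82 and 4.05 to 6.66 CPM, with Ppbp at 0 in both groups). Their part in the transporter results was not tested.

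Lmo2Tg cells were compared with wild-type cells to ask what the transgene changes in DN3 thymocytes. A total of 4 of the 10 transporters were higher in Lmo2Tg cells and none was lower: both glucose carriers, Slc2a3 and Slc2a1, the heavy chain Slc3a2 and Slc38a2. Of the 11840 genes tested, 19.7% were called higher and 16.9% lower, so calls were common in this comparison. The median log2 fold change was 0.16 over the transporters and -0.01 over all genes.

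**Figure D2:**
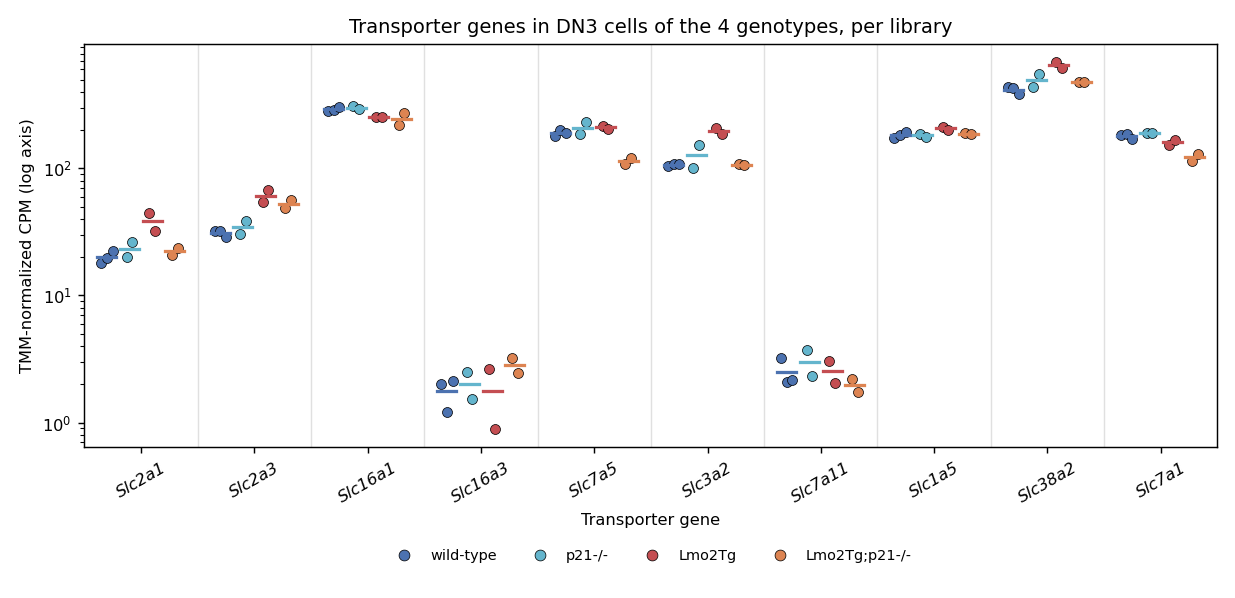
TMM-normalized CPM (log axis) of the 10 transporter genes in each library of DN3 cells of wild-type, p21-/-, Lmo2Tg and Lmo2Tg;p21-/- mice, with the group mean as a line. Slc2a1, Slc2a3, Slc3a2 and Slc38a2 are higher in both Lmo2Tg libraries than in any wild-type library, as are Slc7a5 and Slc1a5, which were not called. Slc7a1 and Slc16a1, also not called, are lower in both Lmo2Tg libraries than in any wild-type library. Slc7a5, Slc3a2, Slc2a1 and Slc7a1 are lower in both Lmo2Tg;p21-/- libraries than in either Lmo2Tg library, as are Slc38a2 and Slc1a5, which were not called. The share of all genes that separate in this way was not counted, so separation by itself does not set a gene that was not called apart from other genes.

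Slc2a3 was at 32.1, 32.4 and 28.8 CPM in wild-type replicates 1, 2 and 3 and at 54.0 and 67.0 CPM in the Lmo2Tg libraries. It was higher by a log2 fold change of 0.96 (standard error 0.13, adjusted p = 0.00023 from edgeR). Slc2a1 was at 18.0, 19.6 and 22.3 CPM in wild-type and at 44.3 and 32.4 CPM in Lmo2Tg libraries, with a log2 fold change of 0.94 (standard error 0.16, adjusted p = 0.0011 from edgeR). Both Lmo2Tg libraries were above every wild-type library for both carriers.

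Slc3a2 was at 103.7, 109 and 108 CPM in wild-type and at 209 and 185 CPM in Lmo2Tg libraries. It was higher by 0.88 on the log2 scale (standard error 0.14, adjusted p = 0.00069 from edgeR), a 1.85-fold higher level. Its light chain Slc7a5 was at 181, 201 and 188 CPM in wild-type and at 217 and 206 CPM in Lmo2Tg libraries. The groups of Slc7a5 did not overlap, but the log2 fold change of 0.15 (standard error 0.10) was not called (adjusted p = 0.25 from edgeR). Per kilobase, the level of Slc3a2 was 30.2 and that of Slc7a5 51.2 CPM in wild-type cells, and they were 55.8 and 57.0 CPM in Lmo2Tg cells.

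Slc38a2 was at 440, 429 and 382 CPM in wild-type and at 683 and 612 CPM in Lmo2Tg libraries. It was higher by a log2 fold change of 0.64 (standard error 0.11, adjusted p = 0.0011 from edgeR), where the 462 genes tested on chromosome 15 had a median of 0.13. Slc1a5 was at 174, 184 and 194 CPM in wild-type and at 211 and 202 CPM in Lmo2Tg libraries, with a log2 fold change of 0.17 that was not called (adjusted p = 0.093 from edgeR) except without wild-type replicate 3 (0.21, adjusted p = 0.033). Slc7a1 was at 182, 188 and 170 CPM in wild-type and at 154 and 166 CPM in Lmo2Tg libraries (log2 fold change -0.17, adjusted p = 0.12). Its groups did not overlap.

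Slc16a1 was at 281, 289 and 303 CPM in wild-type and at 252 CPM in both Lmo2Tg libraries (log2 fold change -0.21, adjusted p = 0.10 from edgeR). Its groups did not overlap, with both Lmo2Tg libraries below every wild-type library. Slc16a3 was at 2.02, 1.21 and 2.12 CPM in wild-type and at 2.66 and 0.889 CPM in Lmo2Tg libraries, and Slc7a11 was at 3.25, 2.10 and 2.18 CPM in wild-type and at 3.03 and 2.05 CPM in Lmo2Tg libraries. The libraries of both genes overlapped, with log2 fold changes of -0.02 (standard error 0.45) and 0.01 (standard error 0.32), and at 13 to 63 counts per library in the genotype experiment a change of moderate size could not be seen.

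Of 19 other amino acid transporters tested, 3 were higher and 4 lower in Lmo2Tg cells (median -0.03). Slc7a8, the other light chain of Slc3a2, was at 0.968 to 1.27 CPM in wild-type and at 28.5 to 66.2 CPM in Lmo2Tg libraries, a log2 fold change of 5.37 (standard error 0.37, adjusted p = 3e-06 from edgeR). Slc36a1, a proton-coupled carrier of the lysosome, was higher (0.74) and Slc43a3 was lower (-0.71). Of 13 other glucose and monocarboxylate carriers, 2 were higher and 4 lower (median -0.08). Among them Emb was lower (-1.10, at 40.1 to 43.2 CPM against 87.4 to 90.3 CPM in wild-type), as was the monocarboxylate carrier relative Slc16a5 (-1.46), and Slc50a1, a sugar carrier, was higher (0.64).

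Of 26 genes of the amino acid response list tested, 7 were higher and 3 lower in Lmo2Tg cells (median 0.05). Atf4 itself was at 162 to 191.5 CPM in wild-type and at 357 to 377 CPM in Lmo2Tg libraries (log2 fold change 1.08, standard error 0.13, adjusted p = 0.00014 from edgeR), and its target Ddit3 was higher (0.63), while Phgdh, the first enzyme of serine synthesis, was lower (-0.46). Of 34 genes of mTORC1 sensing, 5 were higher and 5 lower (median close to 0, at -0.00061). Deptor, an inhibitor bound to mTOR, was higher by 2.61 on the log2 scale, at 23.6 to 34.4 CPM in wild-type and at 167 to 199 CPM in Lmo2Tg libraries. Rragd, a GTPase of the lysosomal sensor, was higher (0.96) and Lamtor3, a subunit of its anchor, was lower (-0.45). Of 21 enzymes that use the carried nutrients, 3 were higher, among them Glul, glutamine synthetase (0.79), and 3 were lower, among them Gsr (-0.53) and Pdk1, a kinase that turns pyruvate away from the mitochondrion (-0.52), with a median of -0.16. Of 20 regulators, 7 were higher and 1 was lower (median 0.14). They included Txnip, known to restrain glucose uptake (0.75), and Mlxip, a glucose-sensing factor (0.49), both higher, and Epas1, a hypoxia-inducible factor, which was higher at 0.615 to 0.739 CPM against 0.122 to 0.181 CPM in wild-type libraries.

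The cells themselves differed in other markers. Of 10 DN3 markers, 8 were lower in Lmo2Tg than in wild-type cells (summed levels 7294 to 7931 and 10640 to 10800 CPM), and of 7 markers of later thymocytes 4 were higher and 2 lower (268 to 300.5 and 103 to 120 CPM). Of 10 proliferation genes 1 was lower (2436 to 3006 and 2737 to 3175 CPM). Of 6 B-lineage markers 1 was lower (20.6 to 25.3 and 34.6 to 42.5 CPM), and of 8 myeloid markers 3 were higher and 1 lower (59.2 to 64.4 and 60.7 to 64.5 CPM). Of 4 markers of epithelium and stroma 2 were higher and 1 lower (432 to 497 and 265 to 277 CPM, with Krt5 and Foxn1 at 0), of 4 markers of NK and gamma-delta cells 2 were higher and 1 lower (310 to 388 and 313 to 342 CPM), and of 5 erythroid and platelet markers 1 was higher (6.28 to 7.45 and 2.48 to 4.77 CPM). Their part in the transporter results was not tested.

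The effect of p21 loss was then compared without and with the transgene. Without it, none of the 10 transporters was called between p21-/- and wild-type cells by edgeR, DESeq2 or limma-voom, where edgeR called 13 of the 11840 genes tested (0.11% in either direction). At an unadjusted p under 0.05 there was 1 transporter by edgeR, 1 by DESeq2 and 0 by limma-voom, and the share of all genes at that p is not given. The p21-/- libraries were not tight: replicates 1 and 2 were at 186 and 231 CPM for Slc7a5, at 100.1 and 153 CPM for Slc3a2, at 433 and 552 CPM for Slc38a2, at 20.0 and 26.2 CPM for Slc2a1 and at 30.6 and 38.6 CPM for Slc2a3. In all 5 of these genes p21-/- replicate 2 was the higher library, while the p21-/- libraries lay close together for Slc1a5 at 185 and 178 CPM, Slc7a1 at 191 and 190 CPM and Slc16a1 at 307 and 291 CPM. Slc16a3 was at 2.52 and 1.52 CPM and Slc7a11 at 3.69 and 2.34 CPM. The log2 fold changes of the 10 genes lay between -0.02 (Slc1a5) and 0.27 (Slc7a11). None of the genes tested in the other lists was called.

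With the transgene, 4 of the 10 transporters were lower in Lmo2Tg;p21-/- than in Lmo2Tg cells and none was higher: the 2 subunits of the leucine carrier, Slc7a5 and Slc3a2, the glucose carrier Slc2a1 and the arginine carrier Slc7a1. Over all genes, 3.59% were called lower and 3.35% higher in this comparison, which shares its Lmo2Tg libraries with that of Lmo2Tg against wild-type. The median log2 fold change was -0.37 over the transporters and 0.02 over all genes.

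Slc7a5 was at 217 and 206 CPM in the Lmo2Tg libraries and at 109 and 121 CPM in Lmo2Tg;p21-/- replicates 1 and 2. It was 1.84-fold lower, with a log2 fold change of -0.88 (standard error 0.11, adjusted p = 0.0029 from edgeR), and was called in all 15 alternatives that changed the fit. Slc3a2 was at 209 and 185 CPM in Lmo2Tg and at 108 and 106 CPM in Lmo2Tg;p21-/- libraries. It also differed by -0.88 on the log2 scale (standard error 0.16, adjusted p = 0.011 from edgeR), and the call was lost without Lmo2Tg;p21-/- replicate 1 or 2 (adjusted p = 0.087 and 0.054). The Lmo2Tg;p21-/- level of Slc3a2 was near that of wild-type cells, whereas that of Slc7a5 was below every other library of the experiment.

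Slc2a1 was at 44.3 and 32.4 CPM in Lmo2Tg and at 20.97 and 23.6 CPM in Lmo2Tg;p21-/- libraries, a log2 fold change of -0.78 (standard error 0.18, adjusted p = 0.028 from edgeR). The call was lost without the Lmo2Tg library of the higher level (-0.54, adjusted p = 0.11), without Lmo2Tg;p21-/- replicate 1 or 2 (adjusted p = 0.19 and 0.066) and in a fit of only these 4 libraries (adjusted p = 0.057). Slc2a3, the other glucose carrier, was at 54.0 and 67.0 CPM in Lmo2Tg and at 48.4 and 56.9 CPM in Lmo2Tg;p21-/- libraries, which overlapped (log2 fold change -0.20, adjusted p = 0.40 from edgeR).

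Slc7a1 was at 154 and 166 CPM in Lmo2Tg and at 115 and 129.5 CPM in Lmo2Tg;p21-/- libraries, a log2 fold change of -0.39 (standard error 0.09, adjusted p = 0.029 from edgeR). The call was lost without the Lmo2Tg library of the higher level (adjusted p = 0.16), without Lmo2Tg;p21-/- replicate 1 or 2 (adjusted p = 0.23 and 0.051), without wild-type replicate 1 (adjusted p = 0.053) and in a fit of only the groups compared (adjusted p = 0.075). Slc38a2 was at 683 and 612 CPM in Lmo2Tg and at 480 and 474 CPM in Lmo2Tg;p21-/- libraries. Its groups did not overlap, and its log2 fold change of -0.44 (standard error 0.12) just missed the threshold (adjusted p = 0.0504 from edgeR), which it passed with RLE size factors (adjusted p = 0.049), by DESeq2 (0.0046), with every gene kept (0.014), with a floor of 1 CPM in each library (0.045), with these groups alone in the fit (0.046) and without p21-/- replicate 1 or 2 or wild-type replicate 3 (adjusted p = 0.027, 0.028 and 0.036). In all, Slc38a2 was called in 8 of the 15 alternatives that changed the fit. With a library left out its adjusted p from edgeR reached 0.22.

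The remaining carriers were not called. Slc1a5 was at 211 and 202 CPM in Lmo2Tg and at 189 and 187 CPM in Lmo2Tg;p21-/- libraries (log2 fold change -0.14, adjusted p = 0.31 from edgeR), and Slc16a1 was at 252 CPM in both Lmo2Tg and at 220 and 271.5 CPM in Lmo2Tg;p21-/- libraries (-0.04). Slc16a3 was at 2.66 and 0.889 CPM in Lmo2Tg and at 3.21 and 2.47 CPM in Lmo2Tg;p21-/- libraries (0.69, standard error 0.47), and Slc7a11 was at 3.03 and 2.05 CPM and at 2.21 and 1.75 CPM in the same order (-0.36, standard error 0.36). The libraries of these 3 genes, Slc16a1, Slc16a3 and Slc7a11, overlapped between the groups.

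**Figure D3:**
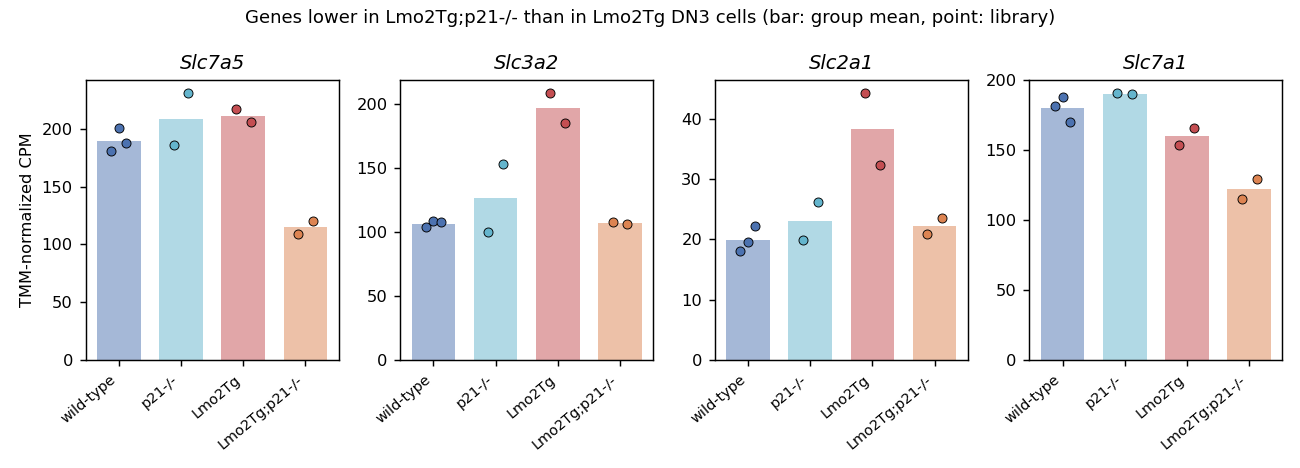
TMM-normalized CPM (linear axis from 0) of Slc7a5, Slc3a2, Slc2a1 and Slc7a1 in the 4 genotypes, with bars at group means and a point per library. Slc7a5 is at 109 and 121 CPM in Lmo2Tg;p21-/- libraries and between 181 and 231 CPM in all others, whereas Slc3a2 is above 180 CPM only in the Lmo2Tg libraries.

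Of 26 genes of the amino acid response tested, 3 were lower and 1 was higher in Lmo2Tg;p21-/- than in Lmo2Tg cells (median -0.26): Atf4 was at 357 to 377 CPM in Lmo2Tg and at 177 to 185 CPM in Lmo2Tg;p21-/- libraries (log2 fold change -1.02, standard error 0.15, adjusted p = 0.0047 from edgeR), Ddit3 was lower (-0.63), and Atf3 was lower at 1.23 and 2.66 CPM in Lmo2Tg and 0 and 0.0713 CPM in Lmo2Tg;p21-/- libraries. Of 21 enzymes that use the carried nutrients, 3 were lower and none was higher (median -0.11). They were Odc1, which makes polyamines from the arginine product ornithine (log2 fold change -1.15, at 220 to 228 CPM in Lmo2Tg and 97.4 to 105 CPM in Lmo2Tg;p21-/- libraries, adjusted p = 0.00074 from edgeR), Hk2, a hexokinase (-0.73), and Gsr (-0.40). Of 20 regulators, 2 were higher and none was lower (median -0.03), namely Txnip (0.84) and Nfe2l2, a factor known to raise Slc7a11 (0.61). Of 34 genes of mTORC1 sensing, Castor2, listed under its older symbol, and Lamtor3 were higher (0.56 and 0.47; median 0.05). None of the 19 other amino acid transporters was called (median 0.02), and of 13 other glucose and monocarboxylate carriers only Slc16a13 was, higher at 2.11 to 2.64 CPM (1.25; median 0.02). None of the 10 proliferation genes was called, at summed levels of 1978 to 2723 CPM in Lmo2Tg;p21-/- and 2436 to 3006 CPM in Lmo2Tg libraries, and of the markers of other cells 1 of 10 for DN3 cells, 1 of 7 for later thymocytes and 1 of 8 for myeloid cells were higher.

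Lmo2Tg;p21-/- cells were also compared with p21-/- cells, which gives the effect of the transgene where p21 is absent. In this comparison 1 transporter was higher, Slc2a3 (log2 fold change 0.61, standard error 0.14, adjusted p = 0.0083 from edgeR), and 2 were lower, Slc7a5 (-0.86, standard error 0.11, adjusted p = 0.00021) and Slc7a1 (-0.64, standard error 0.09, adjusted p = 0.00035). Over all genes 16.3% were called higher and 14.4% lower, so calls were common here too and the counts of transporters lay near these shares. The median log2 fold change was -0.14 over the transporters and -0.0043 over all genes. Slc2a3 lost its call without Lmo2Tg;p21-/- replicate 2 (0.48, adjusted p = 0.066) and without p21-/- replicate 1 (0.45, adjusted p = 0.070). Slc3a2 was at 108 and 106 CPM in Lmo2Tg;p21-/- and at 100.1 and 153 CPM in p21-/- libraries, which overlapped, and it was called lower only without p21-/- replicate 1 (-0.51, adjusted p = 0.0075). Slc2a1 and Slc38a2, which were higher with the transgene where p21 was present, had log2 fold changes of -0.05 (standard errors 0.18 and 0.12) where it was absent. Slc16a1 (-0.28, adjusted p = 0.053) just missed the threshold, and it was called by DESeq2 (adjusted p = 0.030), by limma-voom (0.048), with no filter (0.0499), with the replicate number as a block (0.026), without Lmo2Tg;p21-/- replicate 2 (-0.45, 0.011) and without wild-type replicate 3 (-0.28, 0.043). These are 6 of the 16 alternatives that changed the fit, and with a library left out its adjusted p from edgeR reached 0.365.

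In the same comparison, Slc7a8 was higher by a log2 fold change of 5.76 (52.0 to 74.6 CPM against 1.14 to 1.17 CPM in p21-/-), among 4 higher and 4 lower of 19 other amino acid transporters (median 0.02), with Slc36a1 higher (0.84) and Slc43a3 lower (-1.04). Of 13 other glucose and monocarboxylate carriers, 2 were higher and 5 lower (median -0.36), among them Emb (-1.16), Slc16a5 (-1.11) and Slc2a8, an intracellular glucose carrier (1.68). Of 21 enzymes that use the carried nutrients, 10 were lower and 2 higher (median -0.35), with Odc1 at -0.91, Gsr at -0.93 and Glul at 0.74. Of 26 amino acid response genes 6 were lower, among them Phgdh (-0.58), and 1 was higher, Cebpg (0.34), with a median of -0.07. Of 34 mTORC1 sensing genes 8 were higher, with Deptor at 2.69, and 2 were lower (median 0.02). Of 20 regulators 7 were higher, with Txnip at 1.59 (312 to 388.5 CPM against 96.7 to 136 CPM), and 3 lower (median 0.15). Of 10 proliferation genes 7 were lower (median -0.55), with summed levels of 1978 to 2723 CPM in Lmo2Tg;p21-/- and 3188 to 3629 CPM in p21-/- libraries, and the part of this difference in the transporter values was not tested.

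**Figure D4:**
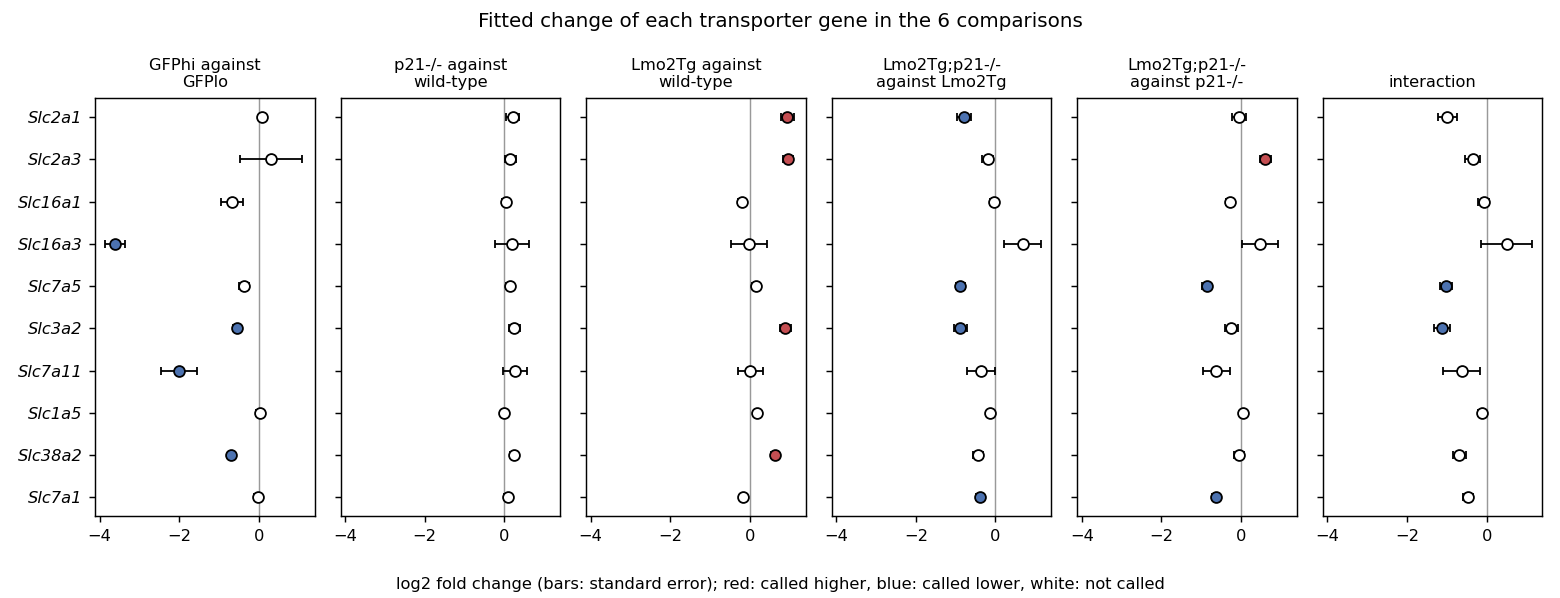
Fitted log2 fold change of each transporter gene (points) with its standard error (bars) in the 6 comparisons, filled red where called higher, blue where called lower and white where not called. Slc3a2 is called lower in GFPhi cells, higher in Lmo2Tg against wild-type and lower in Lmo2Tg;p21-/- against Lmo2Tg, and Slc7a5 and Slc3a2 are the 2 genes called in the interaction.

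The difference between the effect of p21 loss with the transgene and that without it was tested as an interaction. It was called for 2 transporters, both negative: Slc7a5, with an interaction of -1.01 on the log2 scale (standard error 0.15, adjusted p = 0.024 from edgeR), and Slc3a2, with -1.12 (standard error 0.21, adjusted p = 0.034). For Slc7a5 the log2 change on p21 loss was 0.13 without and -0.88 with the transgene, and for Slc3a2 it was 0.25 without and -0.88 with it. Neither change without the transgene was called. Over all genes, 1.1% were called lower and 0.279% higher in this test. Slc2a1 (-0.99, adjusted p = 0.080), Slc7a1 (-0.47, adjusted p = 0.088) and Slc38a2 (-0.68, adjusted p = 0.072) were negative and not called, and DESeq2 called all 5. Without p21-/- replicate 1, Slc2a1 and Slc38a2 were called as well (-1.17 and -0.84, adjusted p = 0.032 and 0.014), and Slc2a1 was also called without the Lmo2Tg library of its lower level (-1.19, adjusted p = 0.045). Of the 14 alternatives that changed the fit, Slc2a1 was called in 4 and Slc38a2 in 3. The Slc7a5 call was lost without Lmo2Tg;p21-/- replicate 1 or 2 (adjusted p = 0.12 and 0.082), p21-/- replicate 2 (0.057) or wild-type replicate 1 or 3 (0.065 and 0.055), and that of Slc3a2 without any of these (0.15, 0.089, 0.059, 0.090 and 0.086), without wild-type replicate 2 (0.063) and without the Lmo2Tg library of its higher level (0.069). In the pathway lists the interaction was called for Atf4 (-1.12, standard error 0.20, adjusted p = 0.033) and Odc1 (-1.21, standard error 0.15, adjusted p = 0.016), both lower, and for no gene of the other carriers, mTORC1 sensing or the regulators. In the marker lists it was called higher for Ccr7, of later thymocytes (2.14, adjusted p = 0.033), and Lyz2, of myeloid cells (1.16, adjusted p = 0.038).

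The 3 transporters with the widest range over the 9 genotype libraries were Slc16a3 (1.72 on the log2 CPM scale), Slc2a1 (1.29) and Slc2a3 (1.21). The narrowest were Slc1a5 (0.28) and Slc16a1 (0.48). Among 8762 genes with at least 10 CPM on average, those whose centred log2 CPM differed least from Slc2a3 over the 9 libraries were Fam134b, Cdkn1b and Phlpp1 (root mean square differences 0.08, 0.09 and 0.10), and those nearest to Slc2a1 were Slc25a25, Twf1 and Map2k3 (0.12, 0.12 and 0.13). Those nearest to Slc16a3, Tec, Zfp809 and Tlr12, differed from it by 0.24, 0.28 and 0.28. These genes share their libraries with the transporters, and the likeness is a description.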

How the data were processed

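DN3 thymocyte RNA-seq was analysed in 15 libraries. For each experiment the authors deposited a table of raw read counts by gene, in whole numbers. The submitters' processing notes name STAR 2.4.2a, featureCounts, limma and mm10. Replicate numbers came from the labels. The Lmo2Tg columns could not be matched to single samples and were used as a group, 1 column that matched no sample was not used, and p21-/- replicate 3 was not analysed here.

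Counts were filtered (filterByExpr, minimum count 10, minimum total 15), scaled by TMM and tested with the quasi-likelihood test of edgeR 4.0.16 (R 4.3.3), the GFP libraries in a fit of 6 and the genotypes in a fit of 9, with Benjamini-Hochberg adjustment over all genes. Positions and exon lengths came from GENCODE M21 (98.2% of identifiers matched). The tests were tested on simulated data. The 10 members and the other lists were chosen with earlier results of these data known. All members are named, and of each other list up to 3 called genes per comparison with the lowest adjusted p.

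Alternatives were DESeq2 1.42.0, limma-voom (limma 3.58.1), RLE size factors, other filters and thresholds, the replicate number as a block, fits of only the groups compared, scaling without chromosomes 2 and 15, and each library left out. Nothing says that libraries of the genotype groups came from separate cohorts beyond being separate pools, so p-values measure the spread between these pools.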

Additional observations from a re-analysis of the deposited data

Results flagged for a closer look

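A total of 2 results differed between genetic backgrounds in a test of the difference itself, where 1.1% of all genes were called lower and 0.279% higher. Neither result was called at an adjusted p under 0.01 from edgeR. Both lost their call without wild-type replicate 1 or 3, and with other libraries left out as given above. The change of Slc7a5 on p21 loss differed between cells with and without the Lmo2 transgene by -1.01 on the log2 scale (standard error 0.15, adjusted p = 0.024 from edgeR's interaction test), with 109 and 121 CPM in Lmo2Tg;p21-/-, 217 and 206 CPM in Lmo2Tg, 186 and 231 CPM in p21-/- and 181 to 201 CPM in wild-type libraries. The change of Slc3a2 differed by -1.12 (standard error 0.21, adjusted p = 0.034 from the same test), and here p21-/- replicate 2, at 153 CPM, lay above the other p21-/- library, at 100.1 CPM. Without p21-/- replicate 2 the interaction was -0.78 for Slc3a2 and -0.85 for Slc7a5, and neither was called (adjusted p = 0.059 and 0.057).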

How the results depend on the processing

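No call of a transporter turned its direction under any alternative. The number of transporters called between GFPhi and GFPlo cells, 4 in the report, was 6 by DESeq2, 2 with at least 1 CPM in every library (which left 8 of the 10 genes tested), 2 at a fold change above 2, 2 at an adjusted p under 0.01 and 2 to 7 with each library left out. With the replicate number as a block it was 3, since Slc7a11 was then not called (adjusted p = 0.073), and deviations of same-numbered GFPhi and GFPlo libraries correlated by 0.07, -0.08 and 0.10, so the numbers were not taken to pair the libraries, although the study used separate cohorts of mice and a number may mark a cohort. The block changed no count by more than 1.5 times in the genotype comparisons that could be fitted with it (0 for p21-/- against wild-type and 4 for Lmo2Tg;p21-/- against p21-/-), and no paired analysis was possible for comparisons with Lmo2Tg because its column names are shared with samples of the other experiment and so name no single sample. For Lmo2Tg against wild-type the count was 0 at a fold change above 2 and 4 to 5 with each library left out. For Lmo2Tg;p21-/- against Lmo2Tg it was 0 at a fold change above 2, 1 at an adjusted p under 0.01 and 1 to 5 with each library left out, and for Lmo2Tg;p21-/- against p21-/- it was 0 at a fold change above 2 and 3 to 4 with each library left out. For the interaction, 2 in the report, it was 5 by DESeq2, 4 without a filter, 0 at an adjusted p under 0.01 and 0 to 4 with each library left out. For p21-/- against wild-type it was 0 throughout. Apart from the fewer genes tested and the stricter thresholds, the cause of these changes was not tested. The share of all genes called is given only for the main fits and the fit without GFPhi replicate 3. The counts under the other alternatives therefore do not show whether the transporters or all genes were called more often. Of the values of single transporters under the alternatives, 919 kept their side of the threshold, 55 lost a call and 29 gained one. Groups of 2 libraries and fewer than 64 counts for Slc16a3 and Slc7a11 limit what the genotype comparisons can show.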
